A study of Mus musculus with 6 samples.

Results

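The serine/arginine-rich (SR) proteins and the heterogeneous nuclear ribonucleoproteins (hnRNPs) are the 2 largest families of general splicing regulators. Their genes were taken by symbol, as all probe rows whose gene is named Srsf followed by a number or begins with Hnrnp. This gave 52 of 30146 probe rows and 31 of 21400 gene symbols, namely 18 rows for 11 SR genes and 34 rows for 20 hnRNP genes. The rows come from TempO-Seq, a targeted assay that joins neighbouring probes on RNA in a lysate and counts the joined products by sequencing, so that each row reports the short stretch its probe covers. Islets of 3 male C57Bl/6 mice labelled wild type (WT) were divided in culture between cisplatin at 10 uM and 0.9% saline vehicle for 48 h, with 3 libraries per group. Cisplatin is a platinum drug that crosslinks DNA. All values are from cultured whole islets, so fewer cells of a type and less RNA per cell cannot be told apart.

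SR proteins carry RNA recognition motifs and a tail rich in arginine and serine, bind exonic enhancers and generally favour use of the exon they sit on. The hnRNPs coat nascent transcripts and often, though not always, favour skipping of an exon. SR proteins are phosphorylated by the SRPK and CLK kinases, and many SR and hnRNP genes limit their own level by splicing in an exon that sends the transcript to nonsense-mediated decay. In beta cells, depletion of SRSF6 or of the splicing factor NOVA1 is known to alter the splicing of transcripts for survival and secretion.

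The libraries held between 1116916 and 2272276 counts. Cisplatin library 3 stood apart, with 28.6% of its counts in mitochondrially encoded rows against 0.188% to 3.11% in the other libraries, and its part in the results was not tested beyond the values given without it. The p53 target Cdkn1a rose from 43.7 ± 15.9 to 951 ± 52.9 CPM, which are counts scaled to library size with TMM factors (SD, n = 3). The tissue label was checked on markers. The 8 beta cell markers summed to 67138 to 148137 CPM with cisplatin and 94455 to 167685 with vehicle, and 4 of 8 tested fell. The 6 alpha cell markers summed to 8030 to 10974 and 17383 to 50855 CPM, and 2 of 5 tested fell. The 7 macrophage markers summed to 13.5 to 86.9 and 157 to 300.4 CPM, and 5 of 6 tested fell. Of the delta and PP cell markers 1 of 4 tested fell, of the stromal markers 1 of 4 fell, of the endothelial markers 1 of 3 rose and 2 fell, and 0 of 2 duct markers were called by edgeR. The acinar markers summed to at most 14.4 CPM, with Pnlip and Prss2 at 0. Over all 7193 tested genes, with 1 row each, edgeR called 12.3% higher and 13.8% lower. These marker changes move with the treatment, and their part in the values below was not tested.

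Few of the SR and hnRNP rows were called as changed with cisplatin. Of the 41 rows with enough counts to be tested, for 27 genes, 5 were higher and 1 was lower, against a background of 25.0% of all 9381 tested rows called in either direction, 11.1% higher and 13.9% lower. The rises were in Hnrnpa0, Hnrnpf, Hnrnpu, Hnrnpc and Srsf9, with fitted folds between 1.94 and 2.99, and the fall was in 1 Hnrnpd probe. Among hnRNP rows 4 of 28 were higher and 1 lower, and among SR rows 1 of 13 was higher and 0 lower. Calls here are adjusted p under 0.05 in edgeR's quasi-likelihood test. On simulated counts, where 8463 of 8646 tested rows were unchanged, this test called 4 of 91 rows with a 2-fold change and 51 of 92 with a 4-fold change. With 25.0% of rows called in the real data, the adjustment is less strict there. The simulated shares therefore do not measure how often a real change of that size was called. A row that was not called may still have changed. At an unadjusted p under 0.05 there were 3 of 13 SR rows, all above 0, against 37.3% of all tested rows. DESeq2 called 3 SR rows higher and 0 lower, against 14.0% and 15.0% of all rows. The median log2 fold change was 0.40 over the SR rows, 0.05 over the hnRNP rows and -0.07 over all tested rows. The share of rows called, 14.6%, lay below the background, and the share called higher, 12.2%, lay near it.

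**Figure D1:**
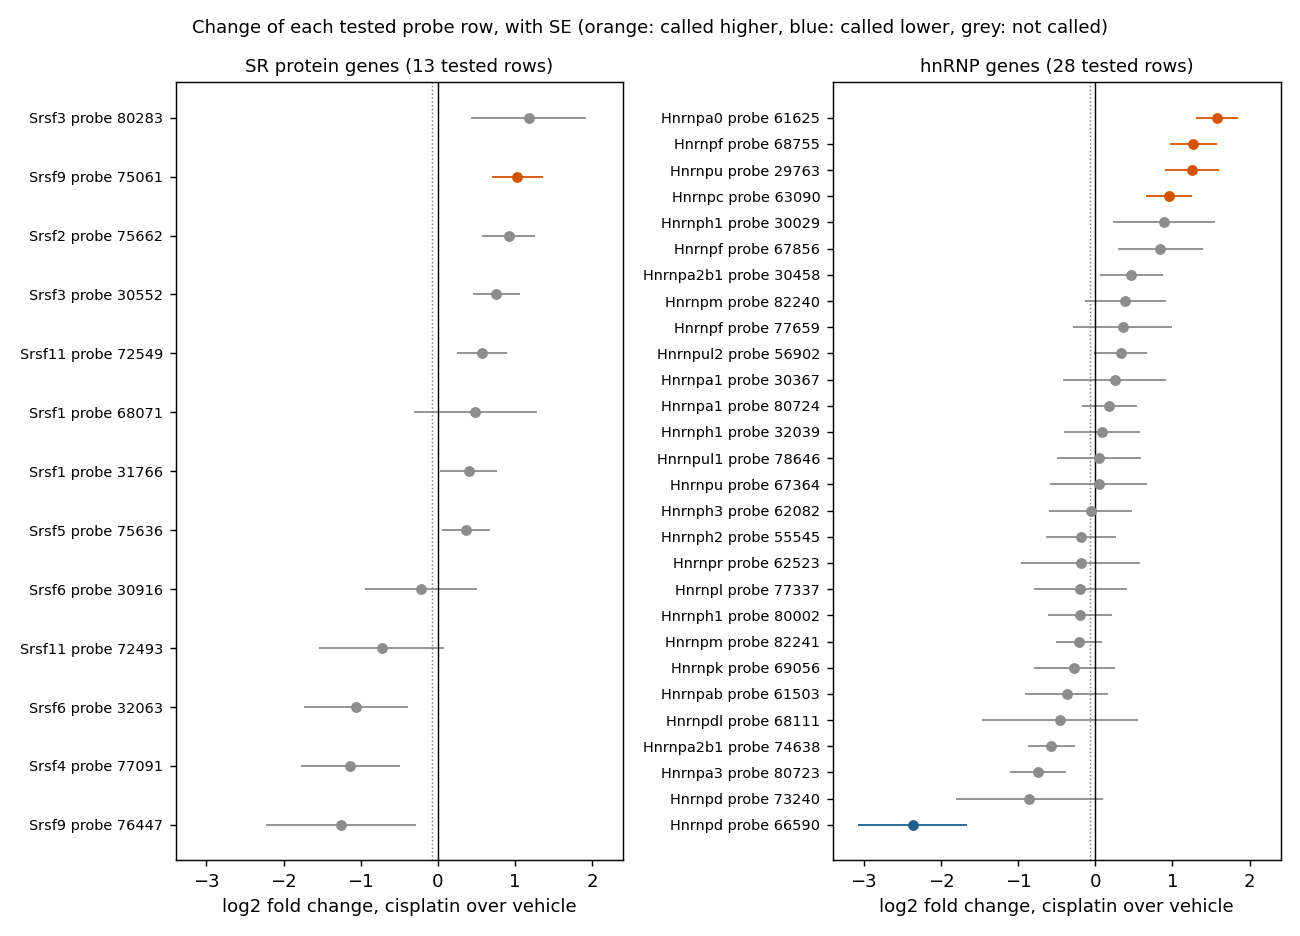
Log2 fold change of cisplatin over vehicle for each tested probe row, with its standard error, ordered by value within the SR genes (left) and the hnRNP genes (right). Orange points were called higher, the blue point lower and grey points were not called, and the dotted line marks the median of all tested rows at -0.07. The points that were not called lie between -1.25 and 1.17.

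The calls fell mostly on abundant rows. Of the 10 member rows with a mean of 100 CPM or more, 4 were higher and 0 lower, while of the 31 rows below that 1 was higher and 1 lower. In the whole table the same division gave 42.8% and 21.5% of rows called. The CPM ranges of the groups were apart in 11 of 41 member rows, 7 higher and 4 lower, against 43.4% of all tested rows, 19.1% higher and 24.3% lower. Across the 41 rows, log2 CPM of a cisplatin and a vehicle library correlated at 0.805 to 0.930, while over all tested rows the same pairs gave 0.624 to 0.738. Rows of a library share its depth, and the member values are spread by a few very abundant rows, so these coefficients are a description only.

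Hnrnpa0 had the largest rise among the tested members. It encodes an hnRNP A/B protein that binds AU-rich elements and is a substrate of the stress kinase MK2. Its row had 659, 851 and 998 CPM in the cisplatin libraries and 301, 245 and 292 CPM in the vehicle libraries. All cisplatin libraries lay above all vehicle libraries, in each of the 3 mice. The mean went from 279 ± 30.1 to 836 ± 170 CPM (SD, n = 3), a log2 fold change of 1.58 ± 0.27 (SE, adjusted p = 0.00109). It was the one rise still called with library totals alone as the scale (1.06, adjusted p = 0.0130), and it was called without each single library (1.45 to 1.83). In the GENCODE M21 annotation it is a single-exon gene of 2.68 kb, the shortest of the 31.

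Hnrnpc encodes the C proteins, which bind uridine tracts and package nascent transcripts. It took 41.2% to 49.1% of all SR and hnRNP counts in cisplatin libraries and 34.9% to 41.6% in vehicle libraries, from its single row. The row had 3263, 3009 and 3457 CPM with cisplatin and 1352, 2119 and 1555 CPM with vehicle. The groups did not overlap, and vehicle library 2 was the highest of its group. The log2 fold change was 0.95 ± 0.30 (adjusted p = 0.0315). Leaving out cisplatin library 1 gave 1.05 (adjusted p = 0.0545), leaving out cisplatin library 3 gave 0.92 (adjusted p = 0.0528), and without vehicle library 1 or 3 the values were 0.87 and 0.88 (adjusted p = 0.173 and 0.152), so that the call was lost each time. It was lost also with library totals alone (0.50, adjusted p = 0.287). Calls over the whole table also fell in 2 of these fits. Without vehicle library 1 there were 504 higher and 581 lower, and without vehicle library 3 there were 579 and 742. With all libraries there were 1040 and 1304.

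Hnrnpf encodes a protein that binds runs of guanine near splice sites, and it has 3 tested probes. Probe 68755 had 479, 250 and 256 CPM with cisplatin and 139, 148 and 122 CPM with vehicle. The groups were apart, with cisplatin library 1 far above the others. Its log2 fold change was 1.27 ± 0.31 (adjusted p = 0.00879), or 0.99 without cisplatin library 1 (adjusted p = 0.0294). Without vehicle library 3 it was 1.17 and not called (adjusted p = 0.0558), as with library totals alone (0.89, adjusted p = 0.0928). Probe 67856 had 85.4, 54.2 and 15.0 CPM against 38.7, 13.3 and 33.8 CPM, with overlapping groups and a log2 fold change of 0.84 ± 0.55. Probe 77659 had 0.36 ± 0.64. Neither of these 2 probes was called, and the value of probe 77659 was -0.10 with library totals alone.

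Hnrnpu encodes a nuclear scaffold protein, also named SAF-A, that binds RNA and chromatin. Its probe 29763 had 197, 224 and 359 CPM with cisplatin and 114, 63.1 and 150 CPM with vehicle. Each cisplatin library was above every vehicle library, and library 3 was the highest in both groups. The log2 fold change was 1.25 ± 0.35 (adjusted p = 0.0186). The call was lost on leaving out cisplatin library 3, vehicle library 1 or vehicle library 2 (0.96, 1.34 and 0.97, adjusted p = 0.0745, 0.0752 and 0.0699), and with library totals alone (0.72, adjusted p = 0.153).

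Srsf9, an SR protein also known as SRp30c, was the one SR gene with a called row. Its probe 75061 had 78.6, 130 and 98.7 CPM with cisplatin and 58.1, 37.9 and 53.9 CPM with vehicle. The groups were apart in all 3 mice. The log2 fold change was 1.03 ± 0.34 (adjusted p = 0.0375), and with the mouse as a replicate block the adjusted p was 0.0552. The call held without cisplatin library 1 (1.28, adjusted p = 0.0146) and was lost on leaving out any other library, with values of 0.81 without cisplatin library 2, 1.08 without cisplatin library 3, and 1.20, 0.86 and 1.06 without vehicle libraries 1, 2 and 3 (adjusted p = 0.134, 0.0581, 0.0889, 0.107 and 0.122). With library totals alone it was 0.52 (adjusted p = 0.365). With the probes of each gene summed Srsf9 was not called (0.80, adjusted p = 0.0758), and Srsf2 was the SR gene called higher (0.88, adjusted p = 0.0491), against 12.7% of 7433 genes.

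Hnrnpd, whose protein AUF1 binds AU-rich elements and directs mRNA decay, held the fall. Probe 66590 had 5.07, 5.70 and 2.14 CPM with cisplatin and 17.8, 40.4 and 11.0 CPM with vehicle. The groups were apart, from 14 counts in the cisplatin libraries together and 137 in the vehicle libraries. The log2 fold change was -2.37 ± 0.71 (adjusted p = 0.0255). The call was lost on leaving out vehicle library 2, the highest (-1.72, adjusted p = 0.170), vehicle library 1 (-2.50, adjusted p = 0.0771) or cisplatin library 3 (-2.06, adjusted p = 0.0743). The other tested Hnrnpd probe, 73240, had -0.85 ± 0.95 and was not called (adjusted p = 0.560), and its value was -0.16 without cisplatin library 1 and -2.20 without library 2. With both probes summed, Hnrnpd was not called (-1.70, adjusted p = 0.0553).

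**Figure D2:**
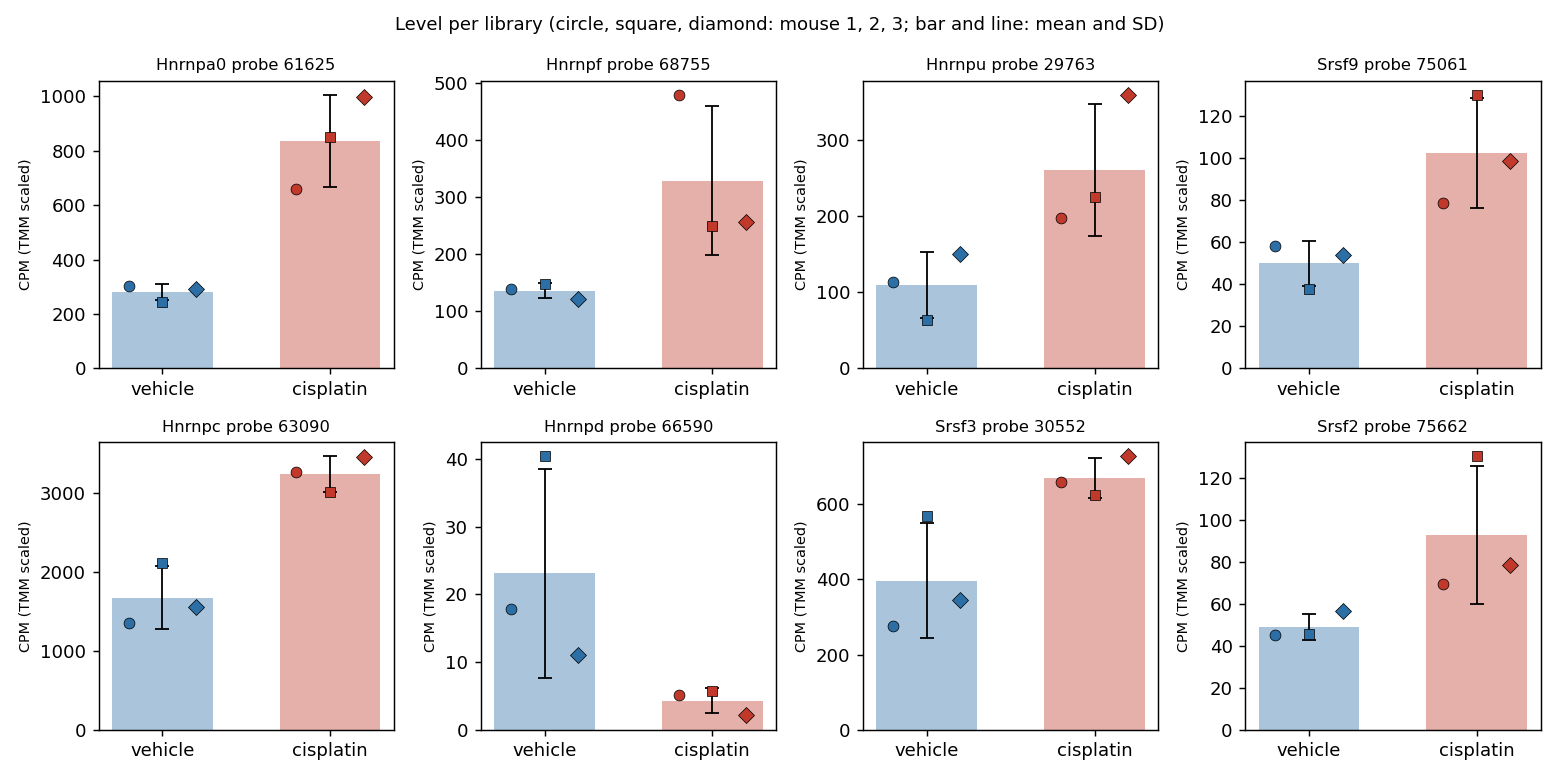
TMM-scaled CPM per library for the 6 called rows and for the most abundant probes of Srsf3 and Srsf2, with mean and SD (n = 3) and a linear axis from 0 in each panel. In the 5 rows called higher, every cisplatin library lies above every vehicle library, and in the Hnrnpd row every one lies below. The Srsf3 and Srsf2 rows, not called, are also apart upward. Among the 35 tested rows not called, groups were apart upward in these 2 alone and downward in 3, which are not shown.

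The stretches just upstream of the called genes are shown because these genes are the ones that moved, 4 higher and 1 lower. They are the 250 bases before the start in RefSeq's promoter table (GRCm38.p6), 5′ to 3′ on the gene's strand. They lie at chr13:58128557-58128806 (minus strand, Hnrnpa0), chr14:52104022-52104271 (minus strand, Hnrnpc), chr1:178337816-178338065 (minus strand, Hnrnpu), chr5:115326927-115327176 (plus strand, Srsf9) and chr5:99978939-99979188 (minus strand, Hnrnpd). Hnrnpf, the remaining called gene, has 4 listed starts and is not shown. Capitals mark matches, on either strand, to the GC box GGGCGG, the CCAAT box CCAAT, the ETS core CGGAAG, the TATA box TATAAA and the AP-1 motif TGANTCA, and overlapping matches run together.
Hnrnpa0: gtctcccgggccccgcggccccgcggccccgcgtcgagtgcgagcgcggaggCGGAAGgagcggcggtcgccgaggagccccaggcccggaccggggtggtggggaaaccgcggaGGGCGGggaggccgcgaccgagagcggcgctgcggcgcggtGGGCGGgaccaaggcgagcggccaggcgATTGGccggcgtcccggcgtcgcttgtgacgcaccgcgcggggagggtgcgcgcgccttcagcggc
Hnrnpc: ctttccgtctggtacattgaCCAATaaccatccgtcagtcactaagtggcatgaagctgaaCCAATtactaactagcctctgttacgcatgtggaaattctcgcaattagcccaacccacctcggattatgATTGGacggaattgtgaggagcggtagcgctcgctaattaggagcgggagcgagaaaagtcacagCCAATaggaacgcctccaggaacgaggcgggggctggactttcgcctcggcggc
Hnrnpu: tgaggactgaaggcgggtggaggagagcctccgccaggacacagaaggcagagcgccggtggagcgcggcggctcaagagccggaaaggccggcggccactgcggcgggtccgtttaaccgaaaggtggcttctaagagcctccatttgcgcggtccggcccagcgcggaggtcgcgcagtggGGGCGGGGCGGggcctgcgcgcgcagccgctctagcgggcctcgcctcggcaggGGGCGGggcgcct
Srsf9: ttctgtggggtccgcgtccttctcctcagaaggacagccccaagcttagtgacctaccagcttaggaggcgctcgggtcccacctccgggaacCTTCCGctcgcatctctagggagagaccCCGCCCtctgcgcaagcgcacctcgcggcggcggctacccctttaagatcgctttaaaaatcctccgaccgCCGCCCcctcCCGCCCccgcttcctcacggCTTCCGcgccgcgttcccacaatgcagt
Hnrnpd: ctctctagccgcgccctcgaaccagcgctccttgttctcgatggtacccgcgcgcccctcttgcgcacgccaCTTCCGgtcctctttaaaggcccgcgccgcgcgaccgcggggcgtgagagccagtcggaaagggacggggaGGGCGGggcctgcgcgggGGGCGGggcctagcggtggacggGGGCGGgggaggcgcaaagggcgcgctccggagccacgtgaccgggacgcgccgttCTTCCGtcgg
The Hnrnpc stretch holds 4 CCAAT matches and 0 GC boxes with 52.8% G and C, while Hnrnpa0 has 2 GC boxes with 81.2% G and C, Srsf9 has 3 with 65.2%, Hnrnpd has 3 with 74.4% and Hnrnpu has 3 with 73.6%. The fallen Hnrnpd and the risen Srsf9 both hold 3 GC box and 2 ETS matches. Over the 41 listed promoters of the 29 member genes with an entry, 80.5% held a GC box, 48.8% a CCAAT box, 36.6% an ETS core, 7.32% a TATA box and 2.44% an AP-1 match. Over all 32851 promoters of this length the shares were 32.7%, 33.8%, 13.6%, 12.4% and 6.75%. That background covers 27025 genes, whether tested here or not, and the shares over tested genes alone were not computed. The median G and C content was 68.0% in member promoters and 52.4% in all. A match is a stretch of letters and no evidence of binding.

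The 4 most abundant SR rows, of Srsf3, Srsf11, Srsf1 and Srsf5, had values above 0 and did not pass the test. Srsf3, the smallest SR protein and an adaptor for mRNA export, had 659, 624 and 728 CPM with cisplatin and 276, 569 and 346 CPM with vehicle on its abundant probe. The groups did not overlap, but vehicle library 2 came close, and the log2 fold change was 0.76 ± 0.30 (adjusted p = 0.0806). With the mouse as a replicate block it was called (0.82, adjusted p = 0.0480), as it was with DESeq2 (0.80, adjusted p = 0.0410) and without vehicle library 2 (adjusted p = 0.0213). Srsf3 was not called with library totals alone (0.31, adjusted p = 0.516) or on leaving out any other single library (adjusted p up to 0.322). Srsf2, also called SC35, had 69.3, 130 and 78.3 CPM against 45.1, 45.5 and 56.3 CPM, with groups apart and a value of 0.92 ± 0.35 (adjusted p = 0.0670). DESeq2 called it (adjusted p = 0.0400), and so did the test without cisplatin library 1 (1.18, adjusted p = 0.0246). Srsf2 was not called with library totals alone (0.43, adjusted p = 0.469) or with a replicate block (0.87, adjusted p = 0.0988). Nor was it called on leaving out any other single library (adjusted p up to 0.269). Srsf1, the prototype of the family, had 260, 212 and 86.9 CPM against 107, 176 and 143 CPM, with cisplatin library 3 below all vehicle libraries (0.40 ± 0.37, adjusted p = 0.471). Srsf11 had 0.57 ± 0.32 (adjusted p = 0.212) and Srsf5 had 0.36 ± 0.31 (adjusted p = 0.428) on their abundant probes. The Srsf5 value was -0.10 with library totals alone.

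The remaining SR rows described here lay on both sides of 0 and were not called. Srsf4, known as SRp75, had 1.69, 39.9 and 34.3 CPM with cisplatin and 64.0, 44.8 and 55.9 CPM with vehicle. The groups were apart, yet cisplatin library 1 was far below the other 2, and the row was not called (-1.14 ± 0.64, adjusted p = 0.214). With library totals alone it was called lower (-1.76, adjusted p = 0.0315). The second probes of Srsf3 and Srsf1 had 1.17 ± 0.75 and 0.48 ± 0.80, on 62 and 30 counts in the cisplatin libraries together. Of the 62 Srsf3 counts 46 were in cisplatin library 1, and the value was 0.11 on leaving it out. Srsf6, known as SRp55, had -1.06 ± 0.68 on probe 32063 and -0.22 ± 0.72 on probe 30916, neither called. Srsf12 could not be tested in the reported fit. It had 0 counts in each cisplatin library and 23, 5 and 17 counts in the vehicle libraries, at least 7.14-fold lower against a floor of 3 counts over the cisplatin group.

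Of the 35 member rows that were not called, leaving out 1 library turned the sign of 15. It turned the sign or moved the value by over 1.5 times in 31. Many of these values lie near 0, with a median of 0.04, and such values turn easily. The share over all rows not called was not computed, so these counts are a description only.

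The remaining hnRNP genes were not called. Hnrnpa3, a relative of Hnrnpa1, had 63.4, 135 and 51.5 CPM against 147, 152 and 120 CPM (-0.74 ± 0.36, adjusted p = 0.152), lower in all 3 mice but with overlapping groups. It was called lower without cisplatin library 2 (-1.28, adjusted p = 0.0221) and with library totals alone (-1.23, adjusted p = 0.0267). Hnrnpa1, a well-known exon silencer, had 0.18 ± 0.35 and 0.25 ± 0.67 on its 2 probes. Values from -0.37 to 0.33 and adjusted p from 0.540 to 0.961 were found for Hnrnpab, Hnrnph2, Hnrnph3, Hnrnpk, Hnrnpl, Hnrnpr, Hnrnpul1 and Hnrnpul2. Of these, Hnrnpk binds cytosine-rich stretches and Hnrnpl binds CA repeats. The SE of these log2 fold changes ranged from 0.35 to 0.77. The 3 Hnrnph1 probes had -0.20 ± 0.42, 0.09 ± 0.49 and 0.89 ± 0.66, the tested Hnrnpm probes had -0.21 ± 0.30 and 0.39 ± 0.52, and the tested Hnrnpdl probe had -0.46 ± 1.01.

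Of the 52 rows, 11 were not tested for low counts. They include Srsf12 and rows of Srsf2, Srsf6, Hnrnpdl, Hnrnpk and Hnrnpm that have a better covered probe. Srsf7 had 8 counts in the cisplatin libraries together and 16 in the vehicle libraries, Srsf10 had 5 and 2, and Hnrnpll had 8 and 14, and none of these 3 genes had another probe. One Hnrnpm probe, 60229, had 0 counts in all 6 libraries while the other 2 probes of that gene had 80 and 284 counts with cisplatin. Hnrnpdl probe 32152 had 31 counts in the cisplatin libraries and 16 in the vehicle libraries, and its CPM groups were apart in the upward direction, from 5.70 to 12.9 against 1.89 to 3.15.

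Summed over all rows, the SR genes had 1376 to 1744 CPM with cisplatin and 899 to 1303 CPM with vehicle. The hnRNP genes had 5551 to 5843 CPM against 2976 to 3792 CPM, and 2204 to 2580 against 1483 to 1673 CPM without Hnrnpc. These CPM use TMM factors, which rest on the bulk of rows. As plain shares of all counts the ranges overlapped, with 0.0939% to 0.163% against 0.110% to 0.140% for SR genes and 0.386% to 0.619% against 0.340% to 0.409% for hnRNP genes. With library totals alone the median log2 fold change was -0.54 over all rows, 0.04 over SR rows and -0.40 over hnRNP rows. Relative to the median of all rows, the SR median was 0.47 with TMM and 0.58 with library totals, and the hnRNP median was 0.12 and 0.13. With library totals 0 of 13 SR rows were called higher and 1 lower, and 1 of 28 hnRNP rows higher and 2 lower, against 4.89% and 21.6% of all rows. With that scale 18.5% of all called rows were higher, against 44.4% with TMM.

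Probes of the same gene were compared because these genes are alternatively spliced. Of the 12 member genes with 2 or more tested probes, 26 rows in all, none had probes whose changes differed at an adjusted p under 0.05 in edgeR's diffSpliceDGE, with adjusted p from 0.286 to 0.990. The background was 0.617% of 1782 genes. On simulated counts, with 1540 genes unchanged, diffSpliceDGE called 0 of 33 genes with a 2-fold probe difference and 9 of 37 with a 4-fold one. How many genes changed was set in the simulation, so these results need not hold in the data. A gene that was not called may still have probes that differ. At an unadjusted p under 0.05 there was 1 of 12 genes, against 11.8% of all. Limma's diffSplice on voom values called 0 of the 12, but it called just 1 of all 1782 genes. The probes' positions in the transcript were not used here, so a probe cannot be tied to an exon or isoform.

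Srsf9 was the gene below the unadjusted 0.05 (diffSpliceDGE, adjusted p = 0.286). Its called probe rose by 1.03, while probe 76447 had 0.846, 0.951 and 10.7 CPM with cisplatin and 14.6, 6.31 and 7.87 CPM with vehicle (-1.25 ± 0.97). The log2 ratio of the second probe to the first was -5.96, -6.52 and -3.14 in the cisplatin libraries and -1.98, -2.53 and -2.75 in the vehicle libraries. This was the 1 gene of 12 whose ratios did not overlap, against 20.4% of all genes. The second probe held 12 counts in the cisplatin libraries together, 10 of them in library 3.

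Hnrnpa2b1, an hnRNP A/B gene related to Hnrnpa1, had probes with opposite signs. Probe 74638 had 70.2, 62.7 and 54.7 CPM with cisplatin and 93.7, 99.8 and 85.4 CPM with vehicle, lower in every library (-0.57 ± 0.31, adjusted p = 0.193). Probe 30458 had 123, 106 and 34.3 CPM against 58.1, 72.0 and 60.6 CPM (0.47 ± 0.41). Their log2 ratio was 0.80, 0.75 and -0.66 with cisplatin and -0.69, -0.47 and -0.49 with vehicle. Mice 1 and 2 shifted and mouse 3 did not, and the test of the difference gave an adjusted p of 0.470 (diffSpliceDGE). For Hnrnpu the second probe, 67364, had 0.04 ± 0.63 beside the rise of 1.25, with an adjusted p of 0.539 for their difference. That value of 0.04 was below 0 in 6 of the alternatives tried. For Srsf11 the probes had 0.57 and -0.73 (adjusted p = 0.557 for their difference), and the ratio was -3.82, -5.79 and -6.70 with cisplatin and -3.05, -3.77 and -4.43 with vehicle, lower in each mouse. The 2 Hnrnpd probes had -2.37 and -0.85, with an adjusted p of 0.664 for their difference. The other 7 genes had adjusted p from 0.746 to 0.990.

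**Figure D3:**
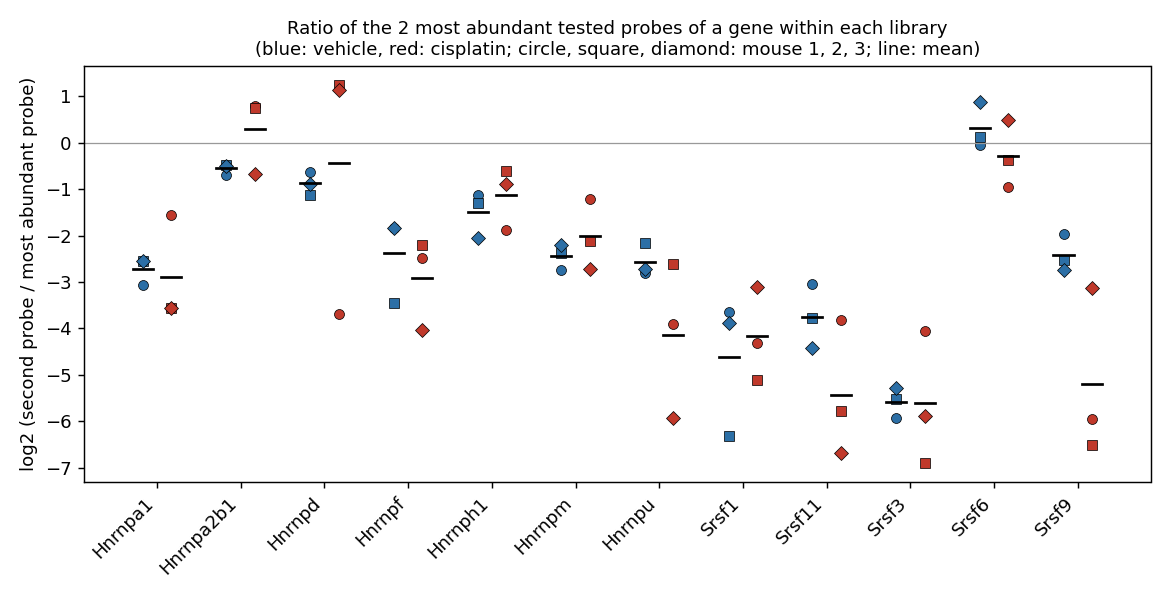
Log2 ratio of the counts of the second to the most abundant tested probe of each of 12 genes, 1 point per library (blue vehicle, red cisplatin), with the mean as a line and 0.5 added to each count. Srsf9 is the gene whose groups are apart.

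In GENCODE M21, 9 of 11 SR genes and 10 of 20 hnRNP genes have a transcript annotated as a target of nonsense-mediated decay, 63.0% of the 27 tested member genes against 31.7% of 7085 tested protein-coding genes. A transcript annotated with a retained intron is listed for 74.1% and 63.5%. Member genes were short, with spans of 2.68 to 48.5 kb and a median of 10.1 kb over tested rows, against 25.2 kb over 9288 tested rows with a span. Over those rows the log2 fold change fell with span (Spearman -0.57, across rows, which share libraries and genes). Over the 41 member rows the coefficient was -0.04. The members cover a narrower range of spans, and the coefficient over all rows in that range was not computed. The coefficients are therefore not on a like basis. All tested rows within the members' span range had a median of 0.23 with 40.3% below 0, and the member rows had 0.09 with 43.9% below 0. No member spanned more than 100 kb, where 92.8% of 1264 rows lay below 0.

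**Figure D4:**
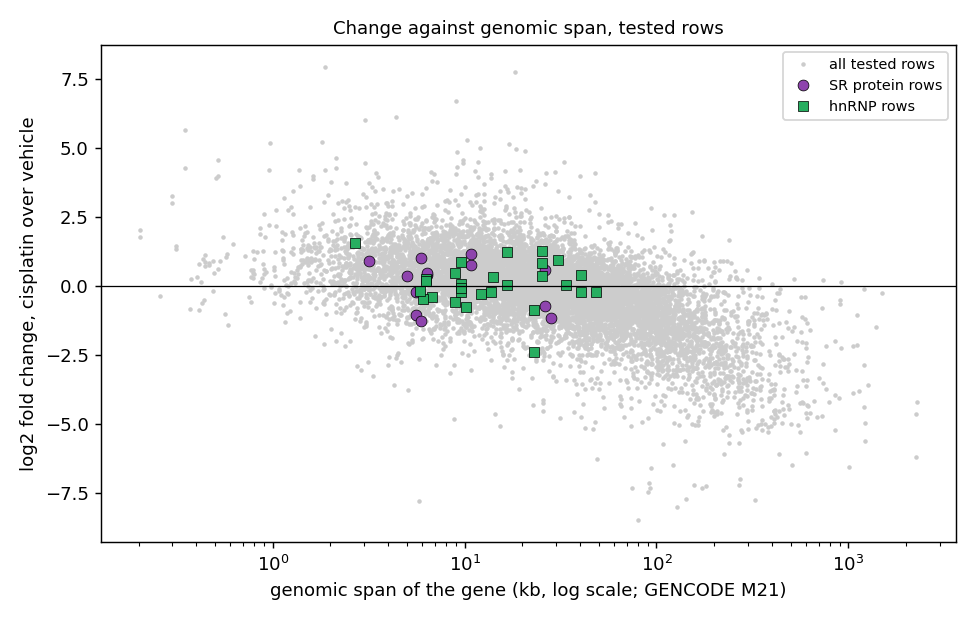
Log2 fold change of cisplatin over vehicle against the genomic span of the gene (log axis) for all tested rows (grey), SR rows (circles) and hnRNP rows (squares). The member rows lie between 2.68 and 48.5 kb and between -2.37 and 1.58.

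Genes that act with these families were read from the same fit, with 1 row per gene. Of 7193 genes 12.3% were higher and 13.8% lower on that basis, with a median of -0.02. Of 13 tested genes on a list of SR kinases, carriers and partners 2 were higher and 2 lower (median 0.20). The 2 lower, Luc7l2 and Hipk2, are not SRPK or CLK kinases. Among the SRPK and CLK genes not called, Srpk2 had -1.25 ± 0.45 (adjusted p = 0.0568), with every cisplatin library below every vehicle library. Srpk1, Clk4 and Clk1 had 0.58 ± 0.30, 0.84 ± 0.55 and 0.12 ± 0.94. Clk2, a nuclear kinase that phosphorylates SR proteins, rose from 149 ± 6.38 to 560 ± 32.0 CPM (1.91 ± 0.26, adjusted p = 1.8e-04), and Clk3 of the same family rose by 1.85 ± 0.40 (adjusted p = 0.00461). Both were called with library totals alone and without each single library. Luc7l2, a partner of the U1 snRNP, had -1.12 ± 0.26 (adjusted p = 0.00640, or 0.0548 without vehicle library 1). Hipk2, a kinase of the p53 response, changed by -3.70 ± 0.69 on 8 cisplatin counts, and by -5.06 without cisplatin library 2. Without vehicle library 1 the number lower was 1.

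Of 21 tested SR-related factors 4 were higher and 1 lower (median -0.11). Tra2b, a splicing activator with arginine- and serine-rich ends, rose from 83.5 ± 30.3 to 294 ± 56.9 CPM (1.82 ± 0.32, adjusted p = 0.00119) and was called without each single library. Srrm4, a regulator of neural and endocrine microexons, had 2.67 ± 0.75 (adjusted p = 0.0183) on 50 counts with cisplatin and 16 with vehicle, and adjusted p = 0.0598 with a replicate block. The call was lost on leaving out cisplatin library 3, vehicle library 1 or vehicle library 3 (adjusted p = 0.0541, 0.0951 and 0.101). Rsrp1 had 1.26 ± 0.28 and Rnps1, a peripheral protein of the exon junction complex, had 1.38 ± 0.28 (adjusted p = 0.00526 and 0.00334), both not called with library totals alone (adjusted p = 0.0718 and 0.0652). Srek1 had -1.46 ± 0.49 (adjusted p = 0.0424), with adjusted p = 0.0693 under a replicate block. Its call was lost on leaving out cisplatin library 2 or 3 (adjusted p = 0.0876 and 0.0939) and likewise for vehicle library 1 or 3 (-1.10 for library 1, adjusted p = 0.291 and 0.107). The number lower was 2 without cisplatin library 2 and 0 without cisplatin library 3 or vehicle library 1 or 3.

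Of 15 tested hnRNP-type genes under other names 1 was higher and 1 lower (median 0.06). Cirbp, a cold-inducible RNA-binding protein, had 0.89 ± 0.25 (adjusted p = 0.0187), and the call was lost on leaving out vehicle library 1, 2 or 3 (1.01, 0.84 and 0.84, adjusted p = 0.0748, 0.0505 and 0.112). Pcbp3, a poly(C)-binding protein, had 3 counts in the cisplatin libraries together and 102 in the vehicle libraries, a ratio of 16.2 (95% counting interval 5.38 to 79.8). Its adjusted p was 0.00562, or 0.0809 on leaving out vehicle library 1. The number higher was 2 without cisplatin library 1 or 3 and 0 on leaving out any 1 vehicle library, and the number lower was 0 without vehicle library 1.

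Of 26 tested tissue splicing regulators 2 were higher and 4 lower (median -0.22). Celf5, an RNA-binding protein of the CELF family, rose by 3.82 ± 0.69 (adjusted p = 0.00145; 4.44 without vehicle library 1) and Rbm38, an RNA-binding target of p53, by 3.01 ± 0.52 (adjusted p = 0.00109). Nova1, a neuronal splicing factor that beta cells also express, fell by 3.69 on the log2 scale, from 37.8 ± 0.691 to 2.89 ± 4.12 CPM, and leaving out cisplatin library 2 or 1 gave -6.11 and -2.98. Elavl4, Mbnl1 and Celf3 were lower too (-1.80 ± 0.49, -1.34 ± 0.35 and -1.25 ± 0.42). The Celf3 groups overlapped, and its call (adjusted p = 0.0436) ended with the mouse as a replicate block (-1.23, adjusted p = 0.0541) and on leaving out cisplatin library 1 or 3 or vehicle library 1 or 3 (adjusted p = 0.110 to 0.270). Leaving out vehicle library 1 ended the calls of Elavl4 and Mbnl1 (adjusted p = 0.0606 and 0.122), and leaving out vehicle library 2 that of Elavl4 (adjusted p = 0.0725). Without vehicle library 1 the number lower was 1, and without cisplatin library 2 the number higher was 4.

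Of 34 tested core spliceosome genes 3 were higher and 0 lower (median 0.18), a share of 8.82%. They were Snrpb, an Sm ring protein (1.19 ± 0.28), the U2 protein gene Sf3a2 (1.01 ± 0.31) and the tri-snRNP gene Sart1 (1.23 ± 0.43, adjusted p = 0.0486). The Sart1 call was lost on leaving out any 1 library (adjusted p = 0.0535 to 0.120). That of Sf3a2 was lost without cisplatin library 2 (adjusted p = 0.0728) and without vehicle libraries 1, 2 and 3 in turn (adjusted p = 0.0713, 0.0800 and 0.110), and that of Snrpb without vehicle library 1 (adjusted p = 0.0558). The number higher was 0 without vehicle library 1 and 1 without cisplatin library 2 or vehicle library 2 or 3, and 1 gene was lower without cisplatin library 2. At an unadjusted p under 0.05 there were 6 of the 34, against 38.5% of all genes. DESeq2 called 0 lower, against 14.9%, and library totals alone gave 0 higher and 4 lower, against 5.51% and 21.5%.

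Of 12 tested nonsense-mediated decay factors 3 were higher and 0 lower (median 0.33). They were Eif4a3 (1.40 ± 0.33, adjusted p = 0.00713), Casc3 (1.32 ± 0.38, adjusted p = 0.0203) and Magoh (1.11 ± 0.34, adjusted p = 0.0276), which encode subunits of the exon junction complex. Rbm8a, the partner of Magoh in that complex, was not called, and its groups overlapped (0.37 ± 0.40, adjusted p = 0.553). The CPM groups were apart upward in 4 of the 12 and downward in 3, against 19.1% and 24.3% of all tested rows. The 3 were Smg9 (-1.49 ± 0.53, adjusted p = 0.0545), Smg1 (-1.07 ± 0.53) and Upf2 (-0.70 ± 0.34), none called. Eif4a3 was called without each single library. The Casc3 call was lost on leaving out cisplatin library 3, vehicle library 2 or vehicle library 3 (adjusted p = 0.0594, 0.0599 and 0.0848). The Magoh call was lost on leaving out cisplatin library 1 (adjusted p = 0.0501) or vehicle library 1, 2 or 3 (adjusted p = 0.124, 0.0524 and 0.113). The number higher was 1 without vehicle library 2 or 3, and 1 was lower without cisplatin library 3. At an unadjusted p under 0.05 there were 5 of the 12, near the 38.5% of all genes. DESeq2 called 1 lower, and with library totals alone 0 were higher and 2 lower, against 14.9%, 5.51% and 21.5%.

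**Figure D5:**
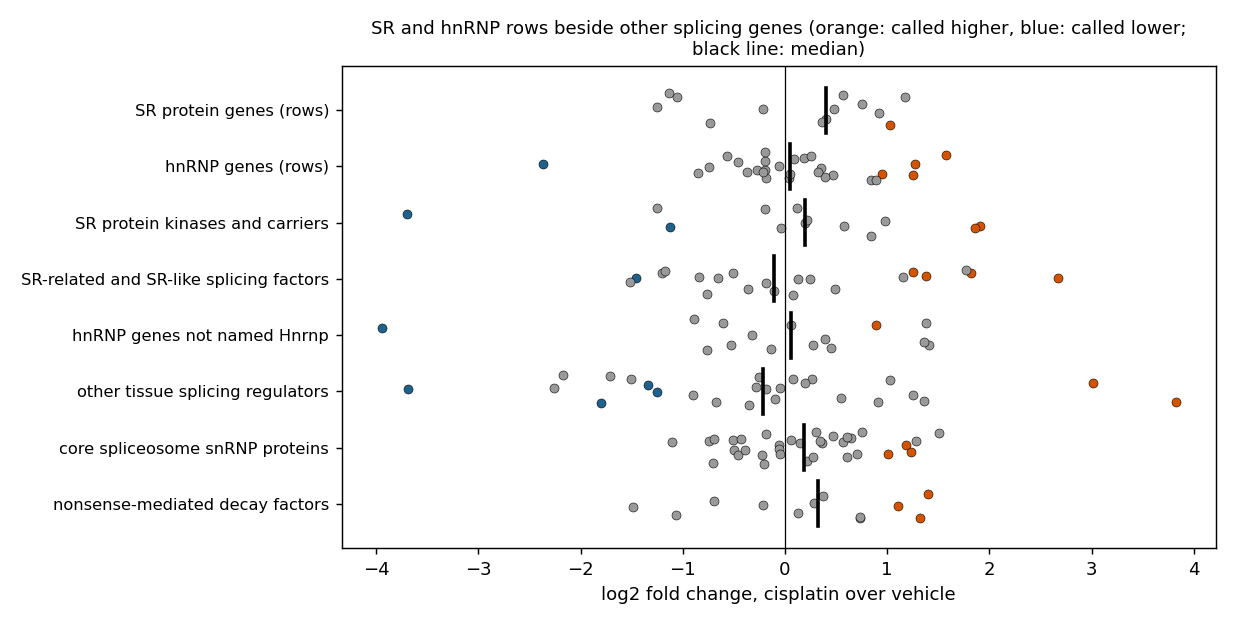
Log2 fold change of cisplatin over vehicle for SR rows, hnRNP rows and 6 lists of other splicing genes (1 row per gene), with the median as a black line. Orange points were called higher, blue lower and grey were not called. The SR and hnRNP points lie between -2.37 and 1.58, while the other lists reach from -3.95 to 3.82.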

How the data were processed

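The panel was the TempO-Seq mouse whole transcriptome assay, per the labels' protocols. The authors deposited whole-number counts per probe row. Tools named in the submitters' processing notes are fastp 0.23.2, STAR 2.7.10b and DESeq2 1.44.0. The notes give these tools no role, and the alignment reference is not stated there. Whether near-identical genes or pseudogenes share reads cannot be told.

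The analysis used edgeR 4.0.16 (R 4.3.3). Rows passed filterByExpr (minimum count 10), libraries were scaled with TMM, and all rows were fitted together with treatment as the only term (robust quasi-likelihood F-test, Benjamini-Hochberg adjustment, two-sided). The SE is the log2 fold change divided by the root of F. Probes of a gene were compared with diffSpliceDGE. Alternatives included DESeq2 1.42.0, limma 3.58.1 for probes and a mouse block. Libraries are paired by the animal in the labels. Their deviations correlated at -0.116, 0.0336 and 0.219 within mice and at -0.227 to 0.168 between mice. The code was tested on simulated data. Replicates differed beyond sampling noise.

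Named were all called members, genes with a called row or probe difference, the 4 most abundant rows of each family and up to 3 called genes per list with the largest change. Other genes were named after their values were seen. The members and lists were chosen with earlier results of these data known. Floors and intervals cover counting error alone, as reads copied by PCR are not separate molecules. Sequences are from RefSeq (GRCm38.p6) and transcript annotation from GENCODE M21, matched by symbol.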

Additional observations from a re-analysis of the deposited data

How the results depend on the processing

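Of the 52 member rows 11 were too shallow to test. For the 38 named rows, 479 of 488 values under 13 alternatives kept the direction. The exceptions, none called, were Hnrnpu probe 67364 (-0.43 with library totals alone, -0.071 with no filter, -0.25 with a replicate block, -0.14 after thinning to the shallowest library, and -0.94 to 0.49 over the fits that leave out 1 library), Hnrnpf probe 77659 (-0.10 with library totals alone and -0.049 after thinning) and Srsf5 (-0.10 with library totals alone).

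Leaving out 1 library each gave 0 to 2 SR rows higher and 0 to 1 lower, 2 to 4 hnRNP rows higher and 0 to 2 lower, and 0 genes with differing probes. In the same fits the list of SR kinases, carriers and partners had 2 to 3 higher and 1 to 3 lower. SR-related factors had 3 to 5 and 0 to 2, other hnRNP-type genes 0 to 2 and 0 to 1, and tissue regulators 2 to 4 and 1 to 5. Core spliceosome genes had 0 to 4 and 0 to 1, and decay factors 1 to 3 and 0 to 1. The SR row lower was Srsf12, which had enough counts for the filter in these fits. Over all tested rows the fits called 504 to 1244 higher and 581 to 1294 lower, against 1040 and 1304 with all libraries. The fewest were called without vehicle library 1 or 3. Calls lost on leaving out a library were not told apart from this general fall in calls.

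With library totals alone the numbers higher and lower were 0 and 1 for SR rows, 1 and 2 for hnRNP rows, 1 and 4 for SR-related factors, 0 and 2 for other hnRNP-type genes, 0 and 4 for core spliceosome genes and 0 and 2 for decay factors, and 7 tissue regulators were lower. With no filter 0 SR rows were higher and 1 lower (Srsf12), 1 core gene and 0 other hnRNP-type genes were higher and 1 decay factor was lower. A filter at a mean of 10 CPM gave 5 core genes higher, and 2 other hnRNP-type genes higher and 0 lower. DESeq2 gave 3 SR rows and 3 other hnRNP-type genes higher, and 2 SR-related factors and 1 decay factor lower. RLE factors gave 2 other hnRNP-type genes higher, and summing probes per gene left 0 hnRNP genes lower and called Srsf2 in place of Srsf9. The causes were not tested. The replicate block called 1 SR row and 4 hnRNP rows higher and 1 hnRNP row lower, with Srsf3 in place of Srsf9, and 0 genes with differing probes. Among the called genes of the other lists it ended the calls of Srrm4, Srek1 and Celf3.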
